A study of Mus musculus with 10 samples.

Results

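The K7M2 line rescued with ezrin T567D was compared with the K7M2 line rescued with wild-type ezrin, gene by gene. The members are the 4 libraries that carry these 2 rescue constructs, 2 for T567D and 2 for WT, of 10 libraries in the series, and the 12595 genes of 41743 gene names that passed a filter on low counts. K7M2 is a mouse osteosarcoma cell line, a bone tumour line that forms metastases in mice. The study disrupted its ezrin gene with CRISPR/Cas9 and then stably transfected the Ezrin -/- cells with a vector. The T567D line carries ezrin cDNA with aspartate in place of threonine T567, and the WT line carries unchanged ezrin cDNA. The T567A line carries alanine at that residue, the empty-vector line carries no ezrin cDNA, and parental K7M2 cells were neither edited nor transfected. The disrupted endogenous gene is thus common to T567D and to its WT control, as it is to T567A and to empty-vector cells. Cells had no other treatment, and poly-A RNA of 2 libraries per line was sequenced.

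Ezrin belongs to the ERM family with radixin and moesin. Its N-terminal domain binds membrane proteins and phospholipids, its C-terminal tail binds actin filaments, and in the closed form the 2 ends hold each other. Phosphorylation of the threonine near the C-terminus favours the open form that bridges membrane and actin. Aspartate at this place mimics the phosphorylated residue, and ezrin has long been studied in osteosarcoma for its link to metastasis. The stretch of the mouse gene that holds the changed codon lies in exon 13 of 13 of Ezr, on the minus strand of chromosome 17. It is shown in the coding direction from the GENCODE M21 reference of GRCm38, with the threonine codon in capitals, because this codon is the stated difference between the 2 constructs. The species of the transfected cDNA is not given in the labels, so the letters are those of the endogenous mouse gene.
Ezr, chr17:6739348-6739380, minus strand: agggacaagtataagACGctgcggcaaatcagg

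Levels are given in CPM, the counts scaled to the TMM-adjusted library total. Changes are log2 fold changes, T567D minus WT, ± standard error (SE). A gene was called when its two-sided p from edgeR's quasi-likelihood fit, Benjamini-Hochberg adjusted over all 12595 genes, was under 0.05. Every adjusted p below is of this kind, except that a fit with 1 library left out adjusts over the 12876 to 12890 genes it tested. Nothing in the labels states that a line's 2 libraries were grown as separate cultures. The p-values therefore describe the spread between the 2 libraries of a line, pooled over the 5 lines, and that spread could be technical. Each construct is represented by 1 stable line, and the titles of the derived lines share a tag read here as 1 clone, so construct and line cannot be told apart. A lower level in bulk RNA also cannot be told apart from fewer cells that express the gene.

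The T567D libraries held 17079467 and 16790455 counts and the WT libraries 16846966 and 17157736, between the series' extremes of 14679424 and 18230763. The share of mitochondrially encoded transcripts was 1.01% and 1.24% in T567D and 1.21% and 1.33% in WT. Of the osteoblast-lineage markers, Runx2, Alpl, Col1a1, Col1a2 and Spp1 reached 1 CPM in all 4 libraries. Sp7, Ibsp, Bglap and Dlx5 were at or near 0, with Bglap the highest of the 4 at 0.0578 and 0.117 CPM in T567D and 0.0582 and 0.114 CPM in WT. Of 5 macrophage markers, Csf1r, Cd68, Cd14 and Lyz2 were also above 1 CPM, with Adgre1 at 0. Their summed level was 1375 to 1390 CPM in T567D and 1417 to 1427 CPM in WT. Most of it was Csf1r, at 1338 and 1352 CPM in T567D and 1379 and 1390 CPM in WT. Over the 4 libraries Cd14 had 32.4 to 34.2 CPM, Cd68 2.33 to 2.63 CPM and Lyz2 1.05 to 2.25 CPM. The leukocyte markers Cd3e and Nkg7 and the epithelial markers Epcam and Krt14 were at 0.

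Few genes differed between T567D and WT, and most of those by little. In all, 169 genes were called, 1.34% of those tested, with 103 higher in T567D (0.818%) and 66 lower (0.524%). The median log2 fold change was 0.48 among the genes called higher and -0.45 among those called lower, and 106 of the 169 differed by at most 1.5-fold. Past 2-fold lay 21 genes (0.167%), 13 higher and 8 lower. Before adjustment 1344 genes (10.7%) had a p under 0.05. Both T567D libraries lay above both WT libraries in 2871 of all tested genes (22.8%), and below both in 2645 (21%). Non-overlap of the lines, as given for genes below, was thus common among genes that were not called. For genes named by the size of their change, non-overlap was required by the rule that named them. A call does not say which of the 2 lines stands apart from the other lines. Of the 14 largest increases, 14 were also called between T567D and T567A and 12 between T567D and empty vector. For the 14 largest decreases these numbers were 7 and 6. Such calls count either direction, and over all tested genes they made up 44.1% and 17.8%. A test against a 1.5-fold change passed 7 genes: Col1a1, Cerk and Pdzd4 were higher in T567D, and Atp2c2, Cdh26, Fam217b and Trpm6 were lower. Leaving out 1 of the 4 libraries left 82 calls without T567D replicate 1, 110 without T567D replicate 3, 65 without WT replicate 1 and 47 without WT replicate 3, and 28 genes were called in every one of these fits and in the full one. DESeq2 called 120 genes.

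**Figure D1:**
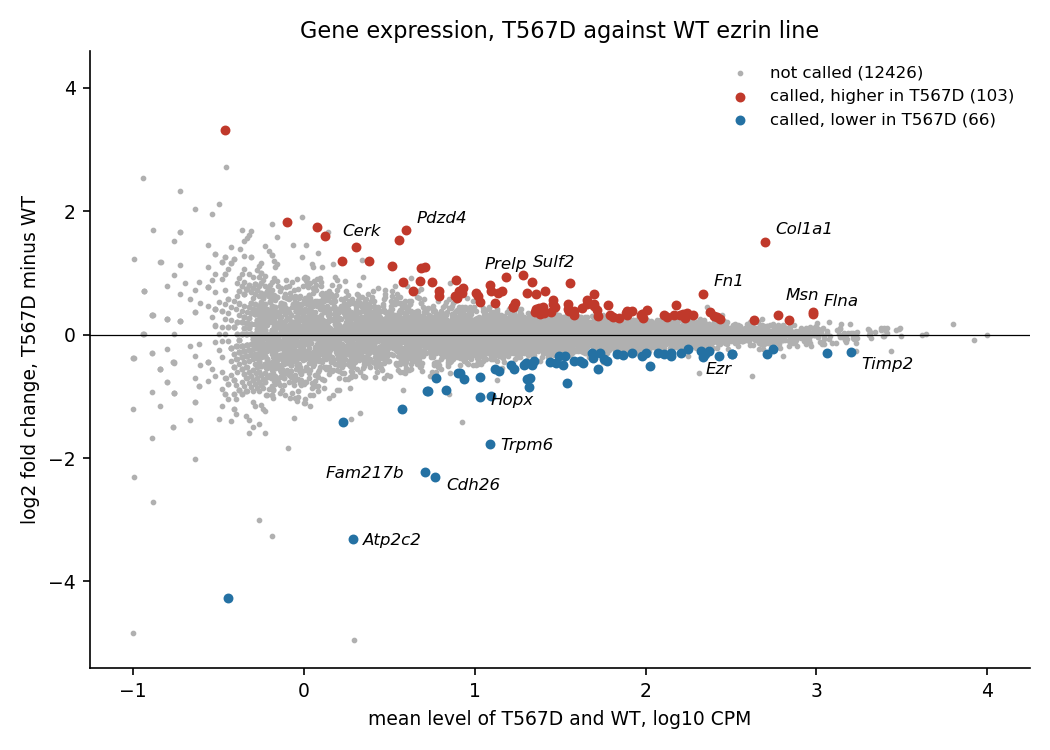
Log2 fold change (T567D minus WT, vertical axis) of each tested gene against its mean level in these 2 lines (log10 CPM, horizontal axis). Grey points are genes not called, red points the 103 called higher and blue points the 66 called lower in T567D. Col1a1, at 1.5, stands far above other genes of its level; 46 genes at a mean of at most 0.1 CPM or outside the axis are not drawn.

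In the ERM family, ezrin's own mRNA was lower and moesin's higher in T567D. Ezr had 204 and 181 CPM in the T567D libraries, against 230 and 233 CPM in the WT libraries. Both T567D libraries thus lay below both WT libraries, and the change was -0.27 ± 0.0622 (adjusted p = 0.032). In the other lines Ezr had 248 and 253 CPM with T567A, 72.4 and 72.9 CPM with the empty vector and 164 and 166 CPM in parental cells. The Ezr call was lost without T567D replicate 3 (adjusted p = 0.38), WT replicate 1 (0.2) or WT replicate 3 (0.33). Counts per gene do not separate vector from endogenous Ezr mRNA, and Ezr overlaps Sytl3 in the annotation.

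Msn, which encodes moesin, had 642 and 674 CPM in T567D, against 534 and 520 CPM in WT. The groups did not overlap (0.32 ± 0.0561, adjusted p = 0.0036), and the T567D level lay beside the parental one, 642 and 667 CPM. In T567A cells Msn had 385 and 375 CPM and in empty-vector cells 530 and 527 CPM. The call was lost without T567D replicate 3 (adjusted p = 0.058) or WT replicate 3 (0.11). Msn lies on the X chromosome among genes that were also higher in T567D, as described further on. Rdx, the radixin gene, and Nf2, the gene of the related tumour suppressor merlin, had changes of 0.11 and 0.10 and did not pass (adjusted p = 0.58 and 0.6).

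Among 23 tested partners and kinases of ERM proteins, Msn and Ezr, which the list also holds, were the called genes. The median change of the list was -0.05, against 0.00 over all tested genes. Slc9a3r1, the gene of the scaffold NHERF1 that binds ezrin's membrane end, had 36.9 and 39.2 CPM in T567D and 46.0 and 41.1 CPM in WT (-0.19, adjusted p = 0.46). Cd44, a hyaluronan receptor that ERM proteins tether, had 581 and 583 CPM in T567D and 636 and 630 CPM in WT (-0.12, adjusted p = 0.46). Podxl, the sialomucin podocalyxin, was at 7.51 and 6.14 CPM in T567D and 9.89 and 9.37 CPM in WT (-0.50, adjusted p = 0.1).

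**Figure D2:**
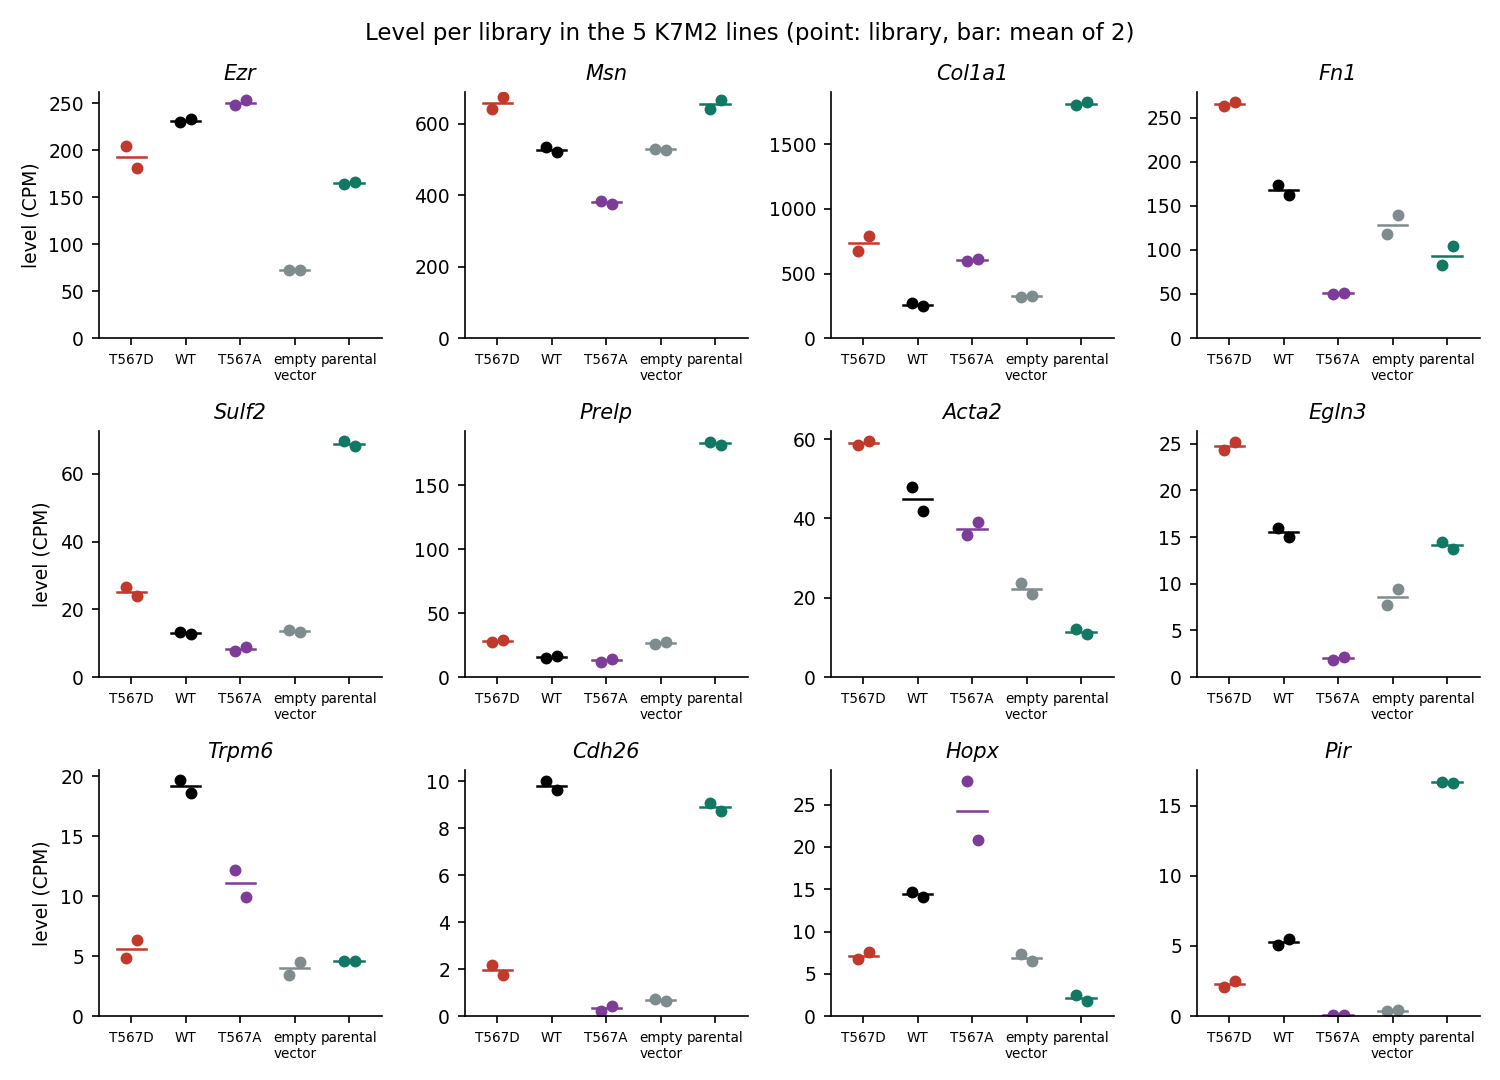
Level in CPM of 12 genes in every library of the 5 K7M2 lines, with T567D and WT at the left of each panel. Points are libraries and bars the mean of 2. Ezr, Msn, Col1a1, Fn1, Sulf2, Prelp, Acta2 and Egln3 separate T567D from WT in one direction or the other without overlap, as do Trpm6, Cdh26, Hopx and Pir, which are lower in T567D.

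Matrix genes gave the largest change among strongly expressed genes. Col1a1, which encodes the alpha 1 chain of type I collagen (chromosome 11, 94936224 to 94953042), had 675 and 794 CPM in T567D, against 272 and 247 CPM in WT. The change was 1.5 ± 0.0703 (adjusted p = 1.4e-11), and it was called under every alternative run. T567A cells had 598 and 609 CPM, empty-vector cells 320 and 327 CPM and parental cells 1805 and 1827 CPM, so T567D lay closer to T567A than to WT. Col1a2, the partner chain of type I collagen, had 3100 and 3329 CPM in T567D and 3007 and 2965 CPM in WT and did not pass (0.11, adjusted p = 0.52). Col3a1, the type III chain, was lower in T567D, with 413 and 502 CPM against 595 and 550 CPM in WT (-0.32, adjusted p = 0.032). It was highest in WT of the 5 lines, with 450 and 443 CPM in T567A, 429 and 461 CPM in empty-vector and 262 and 256 CPM in parental cells. The Col3a1 call was lost without T567D replicate 1 (adjusted p = 0.46), WT replicate 1 (0.36) or WT replicate 3 (0.1). Among 20 tested collagen genes these were the calls, and the list's median was 0.11.

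Fn1, which encodes fibronectin, had 263 and 268 CPM in T567D, against 173 and 162 CPM in WT. That is a change of 0.66 ± 0.0891 (adjusted p = 0.00087), and the T567D libraries were above all 8 others of the series. T567A cells had the lowest Fn1, 49.9 and 51.4 CPM, and the difference between T567D and T567A was 2.39 (adjusted p = 1.2e-11). Between T567D and T567A 44.1% of all tested genes were called, and between T567D and empty vector 17.8%. Bgn, the small proteoglycan biglycan, had 985 and 1125 CPM in T567D and 858 and 825 CPM in WT (0.33, adjusted p = 0.015), a call lost without T567D replicate 3 (0.25), WT replicate 1 (0.1) or WT replicate 3 (0.26). Dcn, its relative decorin, was barely expressed, at 2.37 and 1.34 CPM in T567D and 0.349 and 0.743 CPM in WT (1.75, adjusted p = 0.04), and its call was lost without T567D replicate 1 (0.47), WT replicate 1 (0.44) or WT replicate 3 (0.11). Of 30 tested matrix glycoproteins and proteoglycans, 3 were called higher and none lower, and the median was 0.06; before adjustment 5 were higher and 1 lower at p under 0.05, and DESeq2 called 2 higher and 0 lower.

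Other matrix genes named by the size of their change also rose. Prelp, a leucine-rich proteoglycan that binds collagen, had 27.1 and 29.1 CPM in T567D, against 14.6 and 16.5 CPM in WT (0.86 ± 0.0969, adjusted p = 2.8e-05). Sulf2, an extracellular enzyme that removes sulfate groups from heparan sulfate, had 26.5 and 24 CPM in T567D, against 13.4 and 12.6 CPM in WT (0.96 ± 0.096, adjusted p = 4.9e-06). In both genes every T567D library lay above every WT library, which the rule that named them required. Parental cells stood far higher, at 184 and 182 CPM for Prelp and 69.6 and 68.4 CPM for Sulf2. Empty-vector cells had 25.5 and 27.2 CPM of Prelp, beside T567D (difference 0.09, adjusted p = 0.51). They had 13.8 and 13.2 CPM of Sulf2, beside WT. T567A cells had 11.9 and 14.5 CPM of Prelp and 7.73 and 8.74 CPM of Sulf2. Sulf2 overlaps Ncoa3 in the annotation, and whether counting used the strand is not given in the sources used here.

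Genes that process matrix moved in both directions. Of 26 tested proteases and inhibitors, 4 were higher, 2 lower and 20 not called, with a median of 0.07. Over all tested genes 0.818% were called higher and 0.524% lower. Before adjustment 8 of the list were higher and 3 lower at p under 0.05, and DESeq2 called 3 higher and 2 lower. Adamts2, which trims the N-terminal propeptide of fibrillar procollagens, had 6.93 and 6.25 CPM in T567D, against 3.26 and 2.97 CPM in WT (1.08 ± 0.165, adjusted p = 0.00088). Mmp9, a gelatinase, had 172 and 180 CPM in T567D, against 126 and 126 CPM in WT (0.48 ± 0.0714, adjusted p = 0.00086). T567D and WT overlapped in neither gene, which the naming rule required of Adamts2. Both were called without each library in turn. Empty-vector cells had 171 and 178 CPM of Mmp9, beside T567D (difference 0.01, adjusted p = 0.93), and T567A cells had more, 266 and 308 CPM. Adamts2 was higher in empty-vector cells than in T567D, at 13.4 and 13.8 CPM, and had 2.69 and 2.23 CPM in T567A cells.

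Mmp15, a membrane-anchored metalloproteinase, had 31.8 and 35.9 CPM in T567D and 23.8 and 24 CPM in WT (0.50, adjusted p = 0.0039). Mmp3, or stromelysin 1, had 43.4 and 37.8 CPM in T567D and 27.4 and 34.0 CPM in WT (0.40, adjusted p = 0.047). Timp2, a metalloproteinase inhibitor, was among the most abundant called genes, with 1419 and 1466 CPM in T567D and 1783 and 1731 CPM in WT (-0.28, adjusted p = 0.0072). None of these 3 genes overlapped between the lines, but every one lost its call without T567D replicate 1 or T567D replicate 3 and without at least 1 WT library. Without T567D replicate 1 the adjusted p was 0.45 for Mmp3 and 0.12 for Timp2, and without T567D replicate 3 it was 0.079 for Mmp15. Without WT replicate 1 it was 0.061 for Mmp15, 0.6 for Mmp3 and 0.16 for Timp2, and without WT replicate 3 it was 0.062 for Mmp15 and 0.1 for Timp2. Plat, the tissue plasminogen activator, had 47.1 and 54.3 CPM in T567D and 69.9 and 66.4 CPM in WT (-0.43, adjusted p = 0.0059), a call lost without T567D replicate 1 (0.15) or WT replicate 1 (0.1). Timp1, a related inhibitor, had 35.6 and 34.4 CPM in T567D and 33.1 and 34.3 CPM in WT (0.05, adjusted p = 0.88).

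The called genes of the actin list were higher in T567D. Of 24 tested genes of actin and contractility, Acta2, Flna and Cnn2 rose, none fell, and 21 were not called. The list's median was 0.10, with 19 of 24 changes above 0, against 6395 of 12595 over all tested genes, and at an unadjusted p under 0.05 there were 7 higher and 0 lower. DESeq2 called the same numbers, 3 higher and 0 lower. Acta2, smooth muscle alpha actin, had 58.6 and 59.6 CPM in T567D, against 48.0 and 41.8 CPM in WT (0.40 ± 0.0832, adjusted p = 0.015). Flna, the actin crosslinker filamin A, had 1071 and 1073 CPM in T567D, against 852 and 812 CPM in WT (0.37 ± 0.0616, adjusted p = 0.0025). Cnn2, the actin-binding protein calponin 2, had 190 and 195 CPM in T567D, against 158 and 149 CPM in WT (0.32 ± 0.0615, adjusted p = 0.0066). The T567D libraries were above the WT libraries in each of the 3 genes, as in 22.8% of all tested genes. Without WT replicate 3 all 3 calls were lost, with adjusted p = 0.36 for Acta2, 0.1 for Flna and 0.21 for Cnn2. The Acta2 call was also lost without T567D replicate 1 (0.086) or T567D replicate 3 (0.095), and that of Cnn2 without T567D replicate 3 (0.064).

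Many contractile genes carry a CArG box, the site bound by serum response factor, near their start. The RefSeq promoter windows (GRCm38.p6, 250 bases before to 50 after the start) of Acta2, Flna and Cnn2 were searched on both strands. The search was for the exact pattern CCWWWWWWGG, where W is A or T. Only the window of Cnn2 held an exact match, 56 bases before the start. A GCGTG match beginning 60 bases before the start shares 1 base with it. Sites that depart from the pattern were not searched for, so the windows of Acta2 and Flna may hold such sites. The Cnn2 window is shown here, with the CArG box in capitals, as the window of a called actin gene that holds this motif. An exact match occurred in 1.63% of 32851 promoter windows, and in 5 of the 120 called genes whose window was found. That share counts windows, while the 5 counts genes with a match in any of their windows, so they cannot be compared. These matches describe letters and not binding.
Cnn2 promoter, chr10:79988350-79988649, plus strand: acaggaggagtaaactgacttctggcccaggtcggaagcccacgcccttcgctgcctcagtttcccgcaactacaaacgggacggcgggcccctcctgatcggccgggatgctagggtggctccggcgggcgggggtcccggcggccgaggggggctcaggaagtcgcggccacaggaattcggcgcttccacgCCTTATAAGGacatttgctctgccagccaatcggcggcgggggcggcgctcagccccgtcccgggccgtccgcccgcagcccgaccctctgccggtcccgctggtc

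Outside that list, 3 actin-binding or motor genes were among the largest increases. Lcp1, the actin bundler L-plastin, had 16.6 and 14.8 CPM in T567D, against 8.96 and 8.97 CPM in WT (0.81 ± 0.121, adjusted p = 0.00086). Cotl1, a coactosin-like protein that binds filamentous actin, had 19.9 and 20.3 CPM in T567D, against 10.0 and 11.0 CPM in WT (0.94 ± 0.118, adjusted p = 0.00011). Both were called without each library in turn. The rule that named them required that the lines not overlap. Myo7a, an unconventional myosin, had 8.95 and 11.2 CPM in T567D, against 6.40 and 4.51 CPM in WT (0.89, adjusted p = 0.027), and lost its call without T567D replicate 3 (0.22) or WT replicate 3 (0.37). Cotl1 in T567D was below T567A, where it had 28.2 and 33.4 CPM (-0.62, adjusted p = 5.5e-05), while Lcp1 in T567D was the highest of the 5 lines. Map6, which stabilizes microtubules, was lower in T567D, with 5.20 and 4.32 CPM against 9.37 and 8.40 CPM in WT (-0.90 ± 0.149, adjusted p = 0.0022). Aif1l, an actin-binding protein with EF hands, had 21.0 and 30.2 CPM in T567D and 46.3 and 41.9 CPM in WT (-0.79, adjusted p = 0.0059), a call lost without WT replicate 1 (0.078).

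Calls were also found among adhesion receptors. Of 14 tested integrin genes, Itgb4 and Itgb7 were lower in T567D, none was called higher, and the median was -0.10. Before adjustment 2 integrins were higher and 3 lower at p under 0.05, and DESeq2 called 0 higher and 2 lower. Itgb4, the integrin beta 4 chain that pairs with alpha 6 to bind laminin, had 84.3 and 92.0 CPM in T567D, against 130 and 121 CPM in WT (-0.51 ± 0.0727, adjusted p = 0.00055). It was highest in WT of the 5 lines, with 96.2 and 110 CPM in T567A, 92.7 and 94 CPM in empty-vector and 84 and 79.5 CPM in parental cells. Itgb7, a beta chain best known from lymphocytes, had 190 and 190 CPM in T567D, against 250 and 240 CPM in WT (-0.37 ± 0.0618, adjusted p = 0.0025). Neither gene overlapped between the lines; the Itgb7 call was lost without WT replicate 1 (adjusted p = 0.071). Of the 12 tested genes of the list of cadherins and protocadherins, which does not hold the strongly lower Cdh26 described further on, Cdh11, Pcdh18 and Pcdhb22 were higher, none was called lower, and the median was 0.07; before adjustment 4 were higher and 0 lower, and DESeq2 called 2 higher and 0 lower. Cdh11, the cadherin of osteoblasts, had 108 and 106 CPM in T567D and 81.8 and 88.0 CPM in WT (0.33, adjusted p = 0.016). Pcdh18, a protocadherin, had 40.1 and 40.8 CPM in T567D and 29.9 and 31.6 CPM in WT (0.39, adjusted p = 0.016). Pcdhb22 had 9.76 and 9.23 CPM in T567D and 6.34 and 6.06 CPM in WT (0.62, adjusted p = 0.019), but it belongs to a cluster of similar genes and its count is uncertain. No test of the difference between the families was run. These 3 cadherin calls were lost whichever library was left out. The adjusted p then lay between 0.061 for Pcdhb22 without T567D replicate 3 and 0.26 without WT replicate 3, between 0.087 for Pcdh18 without T567D replicate 1 and 0.21 without WT replicate 1, and between 0.059 for Cdh11 without T567D replicate 3 and 0.27 without WT replicate 1.

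**Figure D3:**
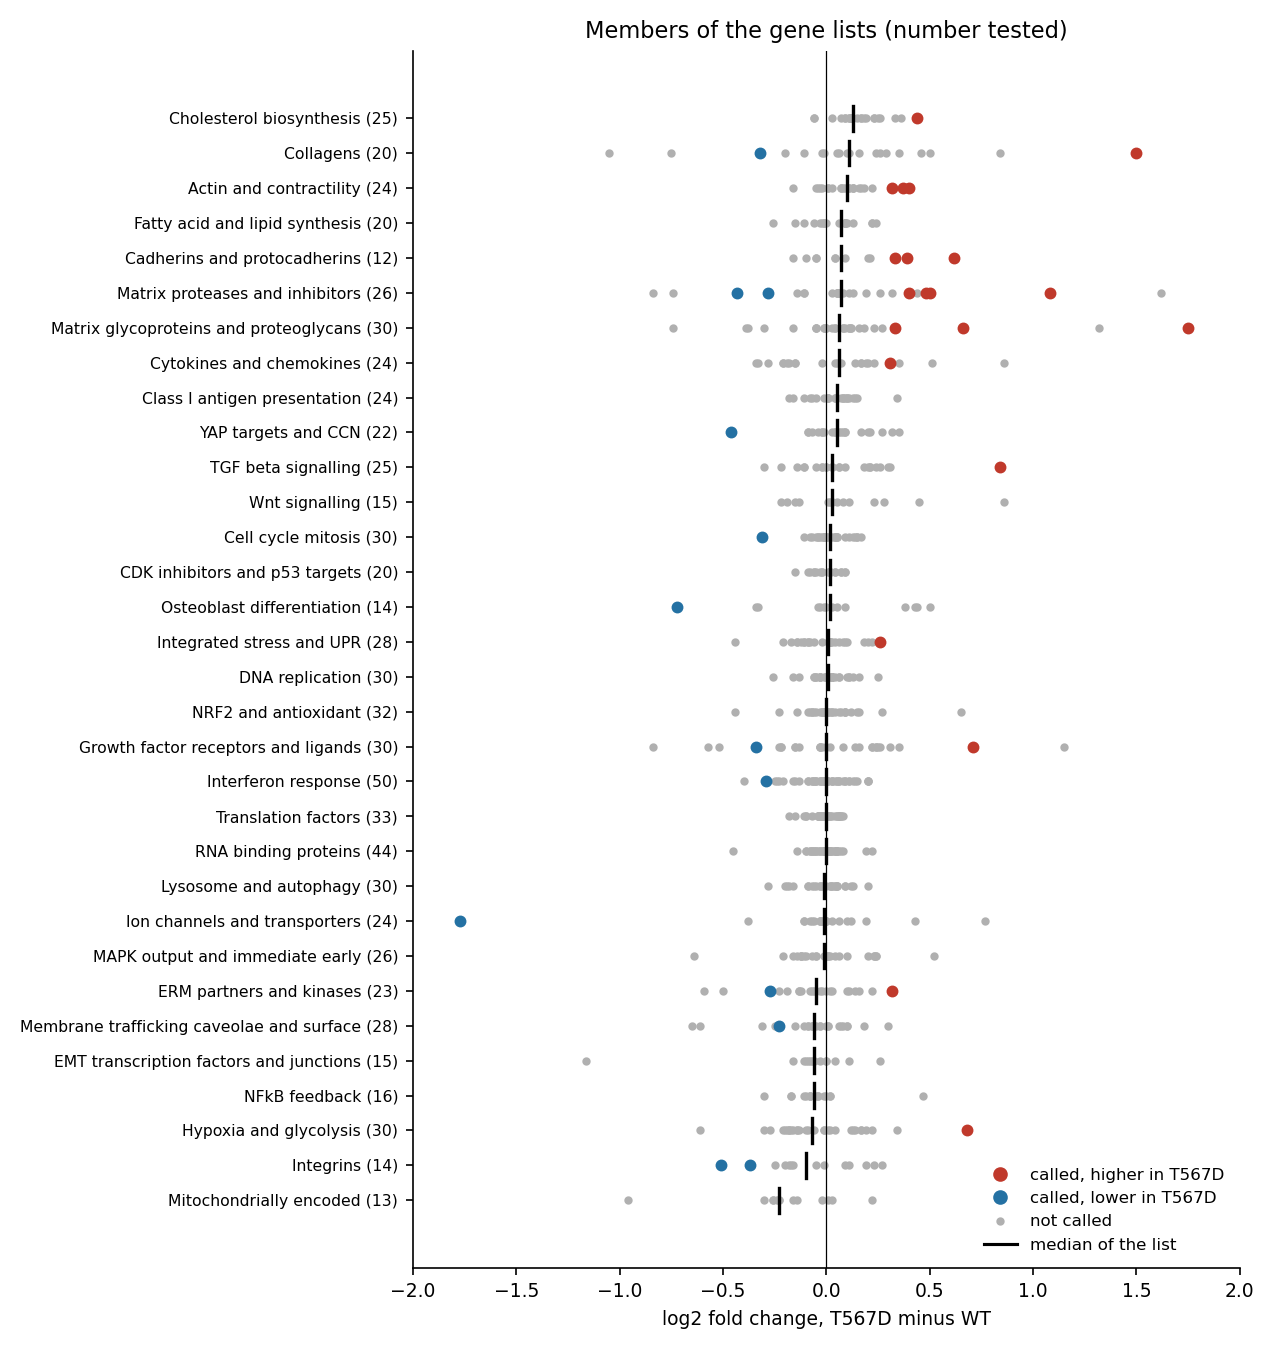
Log2 fold change (T567D minus WT, horizontal axis) of the tested members of each gene list, with the number tested in brackets. Grey points are not called, red and blue points are called higher and lower in T567D, and the black bar is the list's median. The called members are few in each list shown, and 2 members that were not called lie outside the axis.

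Secreted signals and their pathways held few calls. Pdgfb, the B chain of platelet-derived growth factor, had 29.1 and 34.9 CPM in T567D, against 19.7 and 19.4 CPM in WT (0.71 ± 0.101, adjusted p = 0.00051), and was called without each library in turn. Igfbp4, an insulin-like growth factor binding protein, had 30.8 and 28.9 CPM in T567D and 38.3 and 37.2 CPM in WT (-0.34, adjusted p = 0.035). Among 30 tested growth factors and receptors these were the calls, and 9 were higher and 4 lower at an unadjusted p under 0.05. Cxcl12, a chemokine that draws cells bearing CXCR4, was the call among 24 cytokines and chemokines, with 137 and 149 CPM in T567D and 118 and 112 CPM in WT (0.31, adjusted p = 0.017). The calls of Igfbp4 and Cxcl12 did not hold without WT replicate 3 (adjusted p = 0.21 and 0.32), WT replicate 1 (0.27 and 0.097) or T567D replicate 3 (0.26 and 0.2), and that of Igfbp4 did not hold without T567D replicate 1 (0.098).

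In the TGF beta list Pmepa1, a TGF beta-induced inhibitor of the pathway, was called among 25 genes tested. It had 38.1 and 54.9 CPM in T567D, against 28.7 and 23.1 CPM in WT (0.84 ± 0.157, adjusted p = 0.029), and its call was lost without WT replicate 3 (0.19). The inhibitor Smad7 had 59.2 and 52.2 CPM in T567D and 45.3 and 51.7 CPM in WT (0.20, adjusted p = 0.38). Of 22 YAP target and CCN genes, Ccn3, a matricellular protein, was the call, with 39.1 and 33.5 CPM in T567D and 48.1 and 51.6 CPM in WT (-0.46, adjusted p = 0.0065). It was lost without T567D replicate 3 (adjusted p = 0.14) or WT replicate 3 (0.15). Ccn2, the connective tissue growth factor gene and a standard YAP target, had 199 and 220 CPM in T567D and 184 and 150 CPM in WT (0.32, adjusted p = 0.057), and Ccn1 had 1227 and 1294 CPM in T567D and 1093 and 1106 CPM in WT (0.20, adjusted p = 0.12).

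Osteoblast genes gave 1 call among 14 tested. Phex, an endopeptidase of bone cells that is needed for normal phosphate balance and mineralization, had 7.45 and 5.55 CPM in T567D, against 11.6 and 9.94 CPM in WT (-0.72, adjusted p = 0.037). The call was lost without T567D replicate 3 (adjusted p = 0.32), WT replicate 1 (0.33) or WT replicate 3 (0.1). Adipocyte markers were near 0 except Fabp4, a fatty acid-binding protein, which had 7.74 and 6.19 CPM in T567D and 3.32 and 3.20 CPM in WT (1.10 ± 0.198, adjusted p = 0.0046). Its call was lost without T567D replicate 1 (0.1), WT replicate 1 (0.056) or WT replicate 3 (0.09), and Adipoq, Plin1 and Lpl were at 0 counts.

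Metabolic and ion transport genes supplied several of the largest changes. Cerk, ceramide kinase, had 5.66 and 5.03 CPM in T567D, against 1.98 and 1.71 CPM in WT (1.53 ± 0.193, adjusted p = 0.00011). Ass1, argininosuccinate synthase of the arginine pathway, had 7.45 and 7.13 CPM in T567D, against 3.78 and 4.28 CPM in WT (0.85 ± 0.149, adjusted p = 0.0035), while parental cells had 256 and 232 CPM. Egln3, a hydroxylase that marks hypoxia-inducible factors for removal, had 24.3 and 25.2 CPM in T567D, against 16.0 and 15.0 CPM in WT (0.68 ± 0.102, adjusted p = 0.00087). In these 3 genes the T567D libraries lay above the WT libraries, as the naming rule required of Cerk and Ass1. For Egln3 the T567D libraries were the highest of the series. The Ass1 call was lost without WT replicate 1 (adjusted p = 0.074). Egln3 was the call among 30 hypoxia and glycolysis genes, whose median was -0.07.

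Kcnmb4, a beta subunit of the large-conductance potassium channel, had 5.83 and 6.60 CPM in T567D and 3.90 and 2.91 CPM in WT (0.87, adjusted p = 0.031). Its call was lost whichever library was left out (adjusted p of 0.086 and 0.2 without T567D replicates 1 and 3, and 0.059 and 0.42 without WT replicates 1 and 3). Trpm6, a magnesium-permeable channel with a kinase domain (chromosome 19, 18749983 to 18892511), had 4.85 and 6.37 CPM in T567D, against 19.7 and 18.6 CPM in WT. The change was -1.77 ± 0.142 (adjusted p = 1.5e-07), called under every alternative run. T567D was close to the empty-vector line, 3.45 and 4.51 CPM, and to parental cells, 4.59 and 4.61 CPM, with T567A between at 12.2 and 9.96 CPM. The difference between T567D and empty vector was 0.50 and did not pass (adjusted p = 0.065). Trpm6 was the call among 24 ion channels and transporters.

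Cdh26, a cadherin-like gene, and its neighbour Fam217b, a gene of no well-known role, fell furthest among the called genes with at least 5 CPM in the higher line. Cdh26 (chromosome 2, 178430531 to 178487366) had 2.19 and 1.75 CPM in T567D, against 10.0 and 9.65 CPM in WT (-2.31 ± 0.179, adjusted p = 1.2e-07). Fam217b (178414524 to 178424428) had 1.96 and 1.64 CPM in T567D, against 9.60 and 7.31 CPM in WT (-2.23 ± 0.215, adjusted p = 3.3e-06). Both were called under every alternative run, and non-overlap was required of both by the rule that named them. Both genes were below 1 CPM in T567A cells, at 0.207 and 0.445 CPM for Cdh26 and 0.759 and 0.278 CPM for Fam217b, and in empty-vector cells, at 0.735 and 0.636 CPM for Cdh26 and 0.283 and 0.405 CPM for Fam217b. Parental cells were close to WT, at 9.07 and 8.75 CPM for Cdh26 and 9.41 and 10.0 CPM for Fam217b.

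Transcription and signalling genes were also among the larger decreases. Hopx, a small homeodomain protein that does not bind DNA itself, had 6.70 and 7.60 CPM in T567D, against 14.7 and 14.1 CPM in WT (-1.01 ± 0.15, adjusted p = 0.00086). Pir, the iron-binding nuclear protein pirin, had 2.08 and 2.51 CPM in T567D, against 5.06 and 5.48 CPM in WT (-1.20 ± 0.182, adjusted p = 0.00087). Plce1, a phospholipase C that acts downstream of Ras, had 15.8 and 13.9 CPM in T567D, against 28.2 and 25.5 CPM in WT (-0.85 ± 0.114, adjusted p = 0.00026). The groups were apart in each, as the naming rule required, and the 3 calls held without each library in turn. Pir was at 16.7 and 16.6 CPM in parental cells and at or below 0.405 CPM in T567A and empty-vector cells. Fer1l6, of the ferlin family, had 16.8 and 15.3 CPM in T567D, against 28.6 and 23.7 CPM in WT (-0.71 ± 0.107, adjusted p = 0.00087). Plce1 and Fer1l6 were highest in WT of the 5 lines. In T567A cells Plce1 had 13.8 and 12.1 CPM and Fer1l6 15.2 and 15.9 CPM. Empty-vector cells had 9.27 and 10.9 CPM of Plce1 and 10.5 and 12 CPM of Fer1l6. Parental cells had 0.407 and 0.117 CPM of Plce1 and 0.988 and 0.875 CPM of Fer1l6. Camk1d, a calcium/calmodulin-dependent kinase, had 3.70 and 3.62 CPM in T567D, against 7.57 and 6.23 CPM in WT (-0.91 ± 0.165, adjusted p = 0.0046), a call lost without WT replicate 1 (0.11).

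Aldh3a1 and Cyp1a1, enzymes of xenobiotic metabolism induced through the aryl hydrocarbon receptor, were both lower in T567D. Aldh3a1 had 6.87 and 9.70 CPM in T567D, against 18.4 and 14.6 CPM in WT (-0.99 ± 0.176, adjusted p = 0.009). Cyp1a1 had 4.04 and 3.33 CPM in T567D, against 6.40 and 7.60 CPM in WT (-0.92 ± 0.163, adjusted p = 0.0038). T567D and WT did not overlap in either gene, as the naming rule required. Aldh3a1 was highest in WT of the 5 lines. It had 5.73 and 8.57 CPM in T567A, 8.82 and 9.83 CPM in empty-vector and 11.4 and 9.98 CPM in parental cells. Cyp1a1 had 4.69 and 5.01 CPM in T567A, 2.88 and 2.54 CPM in empty-vector and 9.88 and 9.86 CPM in parental cells. The Aldh3a1 call was lost without T567D replicate 1 (adjusted p = 0.086) or WT replicate 1 (0.1), and the Cyp1a1 call without T567D replicate 3 (0.066) or WT replicate 3 (0.11). Other genes of this receptor, looked at after these values were seen, did not pass: Tiparp was at -0.08, Nqo1 at -0.01, Ahr at -0.16 and Ahrr at 0.43. The Cyp1a1 promoter window of RefSeq (GRCm38.p6) is shown because it holds GCGTG, the core bound by this receptor, in capitals, 54 bases before the start. That motif, on either strand, occurred in 32.4% of all 32851 windows and in 57 of the 120 called genes with a window. The share counts windows and the 57 counts genes with a match in any window, so these cannot be compared.
Cyp1a1 promoter, chr9:57697363-57697662, plus strand: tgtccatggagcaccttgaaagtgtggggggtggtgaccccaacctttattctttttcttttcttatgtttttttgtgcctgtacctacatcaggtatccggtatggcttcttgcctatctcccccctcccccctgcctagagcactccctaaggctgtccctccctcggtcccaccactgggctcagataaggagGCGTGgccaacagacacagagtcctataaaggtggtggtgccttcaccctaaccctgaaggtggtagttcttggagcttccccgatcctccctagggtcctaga

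The remaining large increases were Pdzd4 and Soga1. Pdzd4, a PDZ domain protein (chromosome X, 73793359 to 73824969), had 5.89 and 6.31 CPM in T567D, against 1.75 and 2.00 CPM in WT (1.70 ± 0.206, adjusted p = 6.9e-05), and its T567D level was the highest of the 5 lines. Soga1 had 10.5 and 11.1 CPM in T567D, against 7.10 and 5.66 CPM in WT (0.76 ± 0.133, adjusted p = 0.0035), a call lost without WT replicate 3 (0.13). Coa3, an assembly factor of cytochrome c oxidase that overlaps Cntd1, was among the largest decreases, with 14.5 and 16.3 CPM in T567D and 22.7 and 28.0 CPM in WT (-0.72, adjusted p = 0.0042). The Coa3 call was lost without T567D replicate 1 (0.088) or WT replicate 3 (0.12).

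The lists for cholesterol synthesis and the interferon response held 1 call each. Nsdhl, an enzyme of the late steps, had 35.3 and 33.1 CPM in T567D and 25.7 and 24.7 CPM in WT (0.44, adjusted p = 0.015). Of the 25 genes tested, 23 had a change above 0, 10 were higher and none lower at an unadjusted p under 0.05, and the median was 0.13, against 0.00 over all genes. Hmgcs1, which makes HMG-CoA, had 85.9 and 83.9 CPM in T567D and 77.5 and 80.4 CPM in WT (0.11, adjusted p = 0.63). Without T567D replicate 1, WT replicate 1 or WT replicate 3 the Nsdhl call was lost (adjusted p = 0.16, 0.096 and 0.2). Of 50 interferon-response genes, Oas3, an RNA sensor that makes oligoadenylate, was the call, with 71.8 and 78.1 CPM in T567D and 88.0 and 94.8 CPM in WT (-0.29, adjusted p = 0.04). The Oas3 call was lost whichever library was left out, with adjusted p between 0.059 without T567D replicate 3 and 0.48 without WT replicate 3. The other 49 genes of the list did not pass, such as Ifit1 with 221 and 219 CPM in T567D and 197 and 203 CPM in WT (0.14, adjusted p = 0.36). Ifi44l, an interferon-induced gene outside the list and chosen after its values were seen, was called in the other direction, with 10.3 and 10.5 CPM in T567D and 6.81 and 6.17 CPM in WT (0.68, adjusted p = 0.0065), a call lost without WT replicate 3 (0.15). The 24 genes of class I antigen presentation included no call and had a median of 0.05.

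Growth and stress programmes held few calls. Among 30 mitotic genes Birc5, which encodes survivin, had 119 and 111 CPM in T567D and 144 and 143 CPM in WT (-0.31, adjusted p = 0.012). Manf, a secreted protein induced by stress of the endoplasmic reticulum, was the call of 28 stress-response genes, with 296 and 296 CPM in T567D and 252 and 243 CPM in WT (0.26, adjusted p = 0.03). Cavin1, a coat protein of caveolae, was the call of 28 membrane trafficking and surface genes, with 509 and 517 CPM in T567D and 603 and 597 CPM in WT (-0.23, adjusted p = 0.037). The T567D and WT libraries were apart in each of these. The calls of Manf and Cavin1 were lost whichever library was left out, at adjusted p of 0.14 to 0.37 and 0.16 to 0.32, and that of Birc5 without T567D replicate 3 (0.16), WT replicate 1 (0.13) or WT replicate 3 (0.15).

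In the 13 lists named next, 318 genes in all, edgeR called 0 genes, with 17 higher and 18 lower at an unadjusted p under 0.05, and DESeq2 called 2, in the NRF2 and RNA-binding lists. The lists were Wnt signalling (15 tested), MAPK output (26), NF-kB feedback (16), class I presentation, fatty acid synthesis (20), mitochondrially encoded genes (13), DNA replication (30), CDK inhibitors and p53 targets (20), NRF2 targets (32), RNA-binding proteins (44), translation factors (33), lysosome and autophagy (30), and EMT transcription factors (15). Their medians lay between -0.06 and 0.07, except -0.23 for the mitochondrially encoded genes, of which 10 of 13 had a change below 0 and 0 had an unadjusted p under 0.05.

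Calls were not spread evenly along the genome. The X chromosome held 22 calls among 373 tested genes (5.9%), 19 higher and 3 lower, against 145 among 12039 autosomal genes (1.2%). On the X the median change was 0.09, with 69.2% of genes above 0. Such a share was not particular to the X: it was 73.9% on chromosome 9 and 69.3% on chromosome 8, with medians of 0.07 and 0.05. On chromosome 19 it was 35.8%, with a median of -0.04. Calls on chromosomes 8, 9 and 19 were 1.31%, 1.47% and 1.28% of their tested genes. Between 70 and 110 Mb of the X, 18 of 125 genes were called, every one higher, and the median was 0.21, while the rest of the X held 4 calls among 248 genes. This stretch holds Msn, Flna, Bgn, Nsdhl and Pdzd4, so that their calls stand among neighbours that were also higher. In the 5-Mb window around Msn, 13 of 13 tested genes had a change above 0, and their median, 0.32, equalled the change of Msn.

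**Figure D4:**
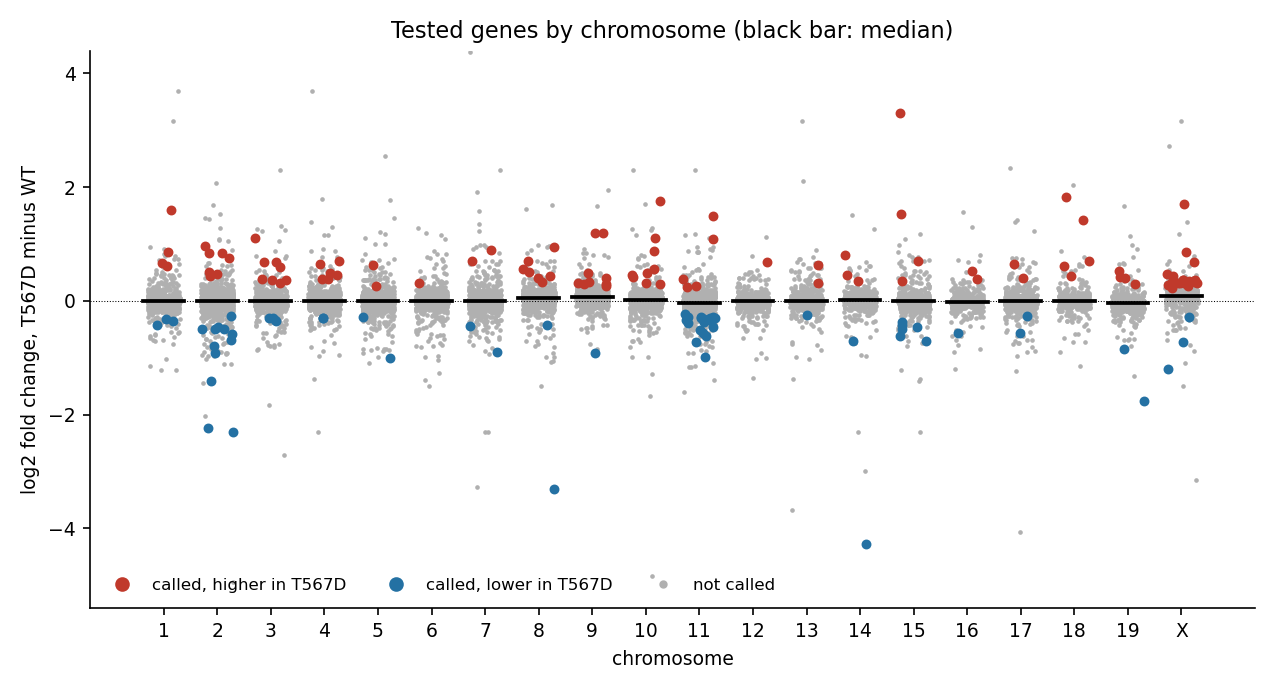
Log2 fold change (T567D minus WT, vertical axis) of 12407 tested genes by chromosome, with a black bar at each chromosome's median. Red and blue points are genes called higher and lower in T567D, and 5 genes lie outside the axis. The X median is 0.09 and most X calls are red; most calls of chromosome 11 are blue.

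Chromosome 11 held 25 calls among 1002 tested genes (2.5%), 5 higher and 20 lower. Between 95 and 125 Mb, 19 of 364 tested genes were called, all lower in T567D, and the median was -0.13, against 6 calls among 638 genes and a median of 0.00 in the first 95 Mb. Itgb4, Timp2, Birc5, Cavin1, Coa3 and Igfbp4 lie in this stretch. Col1a1 lies just before it and rose. The bounds of this stretch and of the X stretch were drawn after the calls were seen, so that calls of 1 direction inside them are a description and follow in part from where the bounds lie. On chromosome 2 between 135 and 140 Mb all 8 tested genes had a change below 0, with a median of -0.50, and 6 were called: Plcb4, Mkks, AL731706.1, Slx4ip, Btbd3 and Jag1, the last a ligand of Notch receptors. Jag1 had 13.3 and 13.7 CPM in T567D, against 20.1 and 17.9 CPM in WT (-0.49, adjusted p = 0.036). Without T567D replicate 1 the Jag1 call was lost (0.22), as it was without T567D replicate 3 (0.14), WT replicate 1 (0.36) or WT replicate 3 (0.1). Cdh26 and Fam217b lie in a further chromosome 2 window, 175 to 180 Mb, where 31 of 38 genes were below 0 and the median was -0.32.

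Of 436 windows of 5 Mb with at least 8 tested genes, 16 had at least 80% of their genes on one side of 0 and at least 1 call. They held 50 of the 169 calls among 572 genes (8.74%), against 119 among 12023 genes elsewhere (0.99%). Without the genes of these windows and of the X, 113 of 11733 genes were called (0.963%), 76 higher and 37 lower. The windows were defined after the values were seen, and the calls inside them helped to choose them. Of the genes described above, Col1a1, Fn1, Prelp, Adamts2, Mmp9, Acta2, Cnn2, Lcp1, Cotl1, Pdgfb, Cerk, Egln3, Trpm6, Hopx, Pir and Plce1 lie outside them, and Sulf2, Pdzd4, Itgb4, Cdh26 and Fam217b lie inside. Lying outside depends on the 80% limit. In the window of Mmp9, 35 of 44 genes were above 0 (79.5%), and in that of Cotl1 17 of 23. In the windows of Col1a1 and Fn1, 9 of 23 and 11 of 26 were above 0. DNA copy number was not measured, and its part in the result was not tested.

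**Figure D5:**
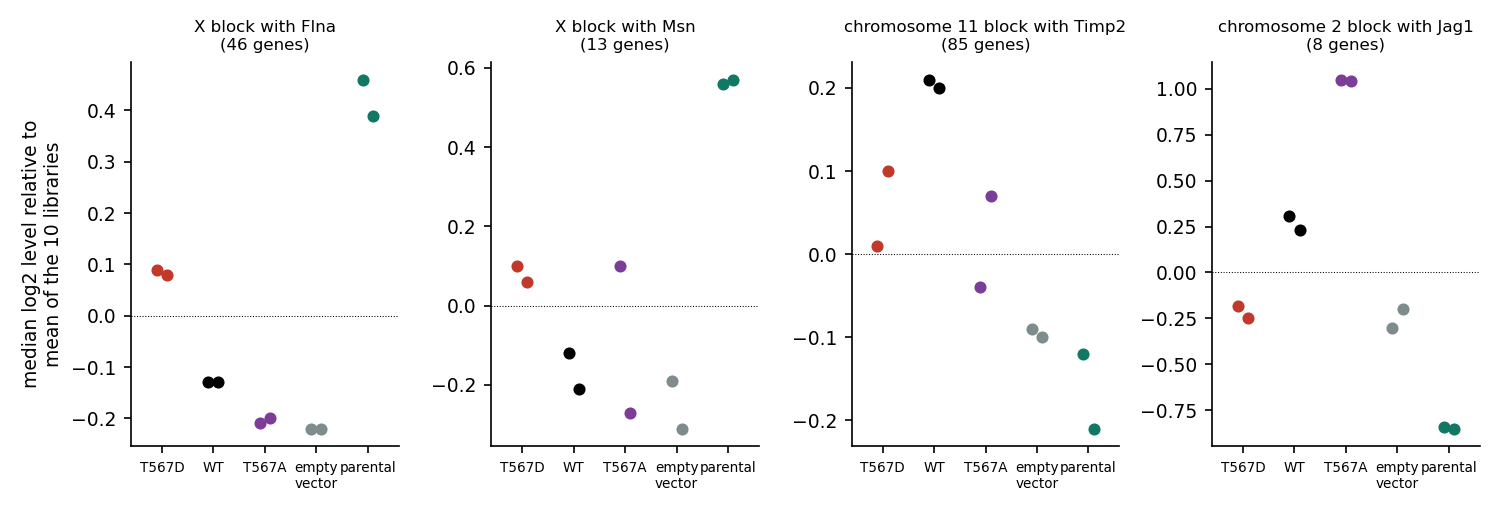
Median over the tested genes of 4 windows of 5 Mb of the log2 level in each library relative to the mean of the 10 libraries, with T567D and WT at the left of each panel. In the X window with Flna the T567D libraries sit at 0.09 and 0.08 and the WT libraries at -0.13 and -0.13, with parental cells highest at 0.46 and 0.39. T567D and WT lie apart in each window, and the T567A libraries differ most from each other in the window with Msn.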

How the data were processed

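Poly-A RNA libraries were made with a dUTP strand-marking protocol and read on a DNBSEQ instrument, per the labels. For each library the authors deposited raw counts and RPKM values per gene name. GRCm38 was the genome build, per the submitters' processing notes. The sources used here name no aligner, counting tool, annotation or strand setting, so overlapping genes and near-identical copies have uncertain counts.

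The deposited counts went into edgeR 4.0.16 (R 4.3.3). After filterByExpr (10 counts at minimum, 15 in total) and TMM scaling, a single robust quasi-likelihood model held all 10 libraries, with a mean for each of 5 groups and 5 residual degrees of freedom. Two-sided p-values were adjusted by Benjamini-Hochberg over the 12595 genes kept, and a gene was called below 0.05. The SE is the fold change divided by the square root of F. The model was tested on simulated data. The deposited RPKM values entered only limma 3.58.1, on log2(RPKM + 1) and log2(RPKM + 0.1), as alternatives. Further alternatives were the RLE and upper-quartile scalings, no filter, 5 CPM required in 2 libraries, DESeq2 1.42.0, a model of the 4 libraries alone, replicate number as a block, a 1.5-fold test, a threshold of 0.01, and each library left out.

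The members and the 35 gene lists were chosen with earlier results of these data known. Named genes are the ERM family; the 14 largest called increases and 14 largest called decreases of protein-coding genes that reached 5 CPM in one line and did not overlap; up to 4 called members of each list at 1 CPM or more; and genes with at most 3 counts in one line. Timp2, Mmp3, Jag1, Col1a2 and other genes outside this rule were chosen after their values were seen. Some genes and 1 list are not reported here. At these depths 3 counts equal 0.171 to 0.175 CPM, which covers counting error only. The chi-square of the 2 libraries' counts per degree of freedom was 4.35 in T567D and 2.44 in WT, above sampling noise. Positions are from GENCODE M21, promoters from RefSeq on GRCm38.p6, and 12428 of the tested genes had a position. Figures were drawn with matplotlib 3.10.9.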

Additional observations from a re-analysis of the deposited data

How the results depend on the processing

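Against 169 calls (103 higher, 66 lower, 21 past 2-fold), the counts moved as follows. Without a filter on low counts there were 300 (164 higher, 136 lower, 36 past 2-fold), and with at least 5 CPM in 2 libraries 12 past 2-fold. A test against a 1.5-fold change gave 7 (3 higher, 4 lower, 7 past 2-fold) and an adjusted p under 0.01 gave 69 (40 higher, 29 lower, 12 past 2-fold), as stricter rules on the same fit. DESeq2 gave 67 higher and 11 past 2-fold. On the deposited RPKM values limma gave 89 (57 higher, 32 lower, 2 past 2-fold) with a pseudocount of 1 and 63 (43 higher, 20 lower, 13 past 2-fold) with 0.1. With 1 library left out there were 47 to 110 calls, 24 to 55 higher, 20 to 55 lower and 14 to 21 past 2-fold, the lone library being assumed to vary like the other groups. The share of calls that were higher was 60.9% and lay between 50% and 69.2% in these fits. Without the genes of the marked windows 40 genes were called lower, and without these and the X 37, alternatives chosen after seeing the data that test fewer genes. RLE and upper-quartile scaling gave 164 and 155 calls, and the median of all genes stayed within 0.01 of 0 in every setting. Apart from these constructions, the cause was not tested.

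The replicate number as a block gave 131 calls (77 higher, 54 lower), of which 123 were among the 169. With the block and only the 4 libraries it gave 235, with 108 lower and 34 past 2-fold. T567D and WT share the numbers 1 and 3, and the deviations of same-numbered libraries from their line's mean had r = -0.0995. With 2 libraries per line these deviations mirror each other, so both numbers give the same r. The labels do not say that a number marks a shared batch, so whether same-numbered libraries share one is not known.

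For the named genes, 713 of the repeated tests kept direction and call, 224 lost the call with the direction kept, and 3 gained one, all for the predicted models Gm20388 and Gm28048 under the block. These 2 genes and Gm14440, which was not tested, had reads in 1 T567D or WT library and are not described as changed. Depth limits the low genes: Dcn, Alx4 and Krt5 rest on few counts.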

Other observations

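Called genes outside the gene lists, chosen here after their values were seen, had these levels. Penk, the precursor of the enkephalin peptides, had 17.6 and 18.5 CPM in T567D, against 10.5 and 11.7 CPM in WT (0.70, adjusted p = 0.001). Cpe, a carboxypeptidase that trims neuropeptide precursors, had 49.5 and 48.6 CPM in T567D, against 35.7 and 37.0 CPM in WT (0.43, adjusted p = 0.0022), a call lost without WT replicate 1 (0.056). Ncam1, the neural cell adhesion molecule, had 49.2 and 56.3 CPM in T567D, against 39.7 and 35.4 CPM in WT (0.49, adjusted p = 0.0029), a call lost without T567D replicate 3 (0.062) or WT replicate 3 (0.11). Nes, the intermediate filament nestin, had 263 and 274 CPM in T567D, against 217 and 202 CPM in WT (0.36, adjusted p = 0.0062), a call lost without T567D replicate 3 (0.064) or WT replicate 3 (0.19). None of the 4 genes overlapped between the lines, but T567D also lay wholly above WT in 22.8% of all tested genes.

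Ston1, an endocytic adaptor, had 60.9 and 61.9 CPM in T567D, against 40.9 and 37.2 CPM in WT (0.65, adjusted p = 2.8e-05). The T567D libraries were above all 8 others of the series, which lay between 37.2 and 45.9 CPM. Msln, the surface protein mesothelin, had 40.9 and 44.7 CPM in T567D, against 64.1 and 62.1 CPM in WT (-0.56, adjusted p = 0.00045). Both were called without each library in turn.

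Atp2c2, a Golgi pump for calcium and manganese, had 0.231 and 0.468 CPM in T567D, from 4 and 8 counts, against 3.67 and 3.37 CPM in WT (-3.31, adjusted p = 2.8e-05). It was at most 0.69 CPM in every library of the other 3 lines, so WT was the line that stood apart. Atp2c2 lies on chromosome 8, 119700009 to 119757717, and Cotl1, which rose, at 119809222 to 119840544. Fam216b had 0 and 1 counts in T567D, 13 and 11 counts in WT and 0 in the 6 libraries of the other lines. Its call (adjusted p = 0.019) was lost without T567D replicate 1 (0.23) or T567D replicate 3 (0.084).

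Krt5, an epithelial keratin, had 15 and 7 counts in T567D and 0 and 2 counts in WT, and its call (adjusted p = 0.044) was lost without T567D replicate 1 (0.42), WT replicate 1 (0.41) or WT replicate 3 (0.11). In the Notch pathway Hey1, a target gene, had 14.1 and 10.9 CPM in T567D and 6.52 and 9.03 CPM in WT (0.68, adjusted p = 0.029), while the ligand Jag1 was lower. The Hey1 call was lost without T567D replicate 1 (0.37) or WT replicate 1 (0.42). Alx4, a homeodomain factor of bone and limb, had 0.982 and 0.877 CPM in T567D and 3.03 and 1.94 CPM in WT (-1.41, adjusted p = 0.032), and was at or below 0.167 CPM in T567A and empty-vector cells. The Alx4 call was lost without T567D replicate 1 (0.17), T567D replicate 3 (0.2) or WT replicate 1 (0.45).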
